A study of Mus musculus with 9 samples.

Results

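In the mouse ovarian surface epithelial (MOSE) cells studied here, 50 genes of 18193 met a rule for a peak of their mRNA level in the intermediate stage, MOSE-I. These genes were chosen by their measured signals. A probe set that names 1 gene had to average over 500 on the 3 MOSE-I arrays and at least 2 times its mean on the 3 MOSE-E and on the 3 MOSE-L arrays, with every MOSE-I signal above all 6 other signals. Each gene counted once, by its brightest passing probe set, and 59 probe sets passed in all. The same rule found 202 genes with a peak in MOSE-E and 414 with a peak in MOSE-L cells. Because the rule used the differences from MOSE-I, these are described below without a test for the 50 genes. MOSE-L was tested against MOSE-E, a difference that the rule did not use but limited, since it held both stages under MOSE-I. Some genes entered this test only through their MOSE-I signals, as named below.

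The MOSE cells came from C57BL6 mice and transformed spontaneously in culture. Total RNA was measured on 9 Affymetrix mouse arrays, 3 per stage. MOSE-E cells, labelled non-malignant, were taken at passages 13, 14 and 15 for replicates 1 to 3, MOSE-I cells, labelled intermediate, at passages 63, 71 and 73, and MOSE-L cells, labelled malignant, at passages 136, 142 and 143. All stages grew in high-glucose DMEM with fetal bovine serum, insulin, transferrin, selenite, penicillin and streptomycin and belonged to the same heterogeneous cell series, so that stage and time in culture cannot be told apart. The p-values therefore measure the spread between cultures of this series. All values are linear MAS 5.0 signals, intensities without a unit that were scaled to a trimmed mean of 500 on each array.

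The ovarian surface epithelium is a mesothelium-like layer that carries keratins together with genes usually found in mesenchyme, and its cells change readily between epithelial and fibroblast-like shapes in culture. Transcription factors such as Twist2, Prrx1 and Tcf21 are known from embryonic mesenchyme, where they keep cells in an undifferentiated or migratory state. Metallothioneins bind zinc and copper and are induced by metals and oxidants. Genes for DNA synthesis and chromosome segregation are mostly transcribed in cycling cells.

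Markers of the labelled cell type were present in all stages. Of 10 markers of mesothelium and ovarian surface epithelium, 8 exceeded a signal of 500 on at least 1 array, and their summed signal lay between 84133 and 86468 in MOSE-E, between 60392 and 82435 in MOSE-I and between 55586 and 72531 in MOSE-L cells. These markers did not move together. In proportion Krt7 fell furthest, from a mean of 3328 in MOSE-E to 294 in the intermediate and 129 in the late cells. Krt19, Upk1b, Msln and the dim Lhx9 also had their highest means in MOSE-E. Krt8 and Krt18 were highest in MOSE-I, with means of 21212 and 12943. Wt1, Upk3b and the dim Lgals7 were highest in MOSE-L, with means of 3940, 22155 and 353. Markers of endothelium, granulosa and theca cells stayed under 500 on every array, and of the smooth muscle, leukocyte and germ cell markers 1 each exceeded it, Cnn1 and Ddx4 in MOSE-E and Csf1r in MOSE-I cells. Replicate 1 of MOSE-E, replicate 1 of MOSE-I and replicate 3 of MOSE-L stood apart from their groups, with correlations to the other arrays of their stage of 0.951 and 0.955, 0.939 and 0.947, and 0.889 and 0.907. Many of the results that rest on these arrays are given with and without them, but not every list count.

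The lower of the 2 ratios, MOSE-I over MOSE-E and MOSE-I over MOSE-L, ran from 2.00 to 17.1 with a median of 2.15. It was at least 4 in 9 genes, at least 3 in 12 and at least 2.5 in 15, so most of the genes lay just above the limit. The 12 leading genes were Twist2, Mt2, Mgp, Fmod, Tcf21, Cd24a, Il33, Prrx1, Pdgfrb, Lsp1, Phb2 and Adam12. The genes were grouped by their known roles after they had been found. They comprised 3 transcription factors, 6 secreted, surface or matrix proteins, 8 proteins of signalling, cytoskeleton or metal binding, 13 of DNA synthesis and cell division, 6 of mitochondria, and 14 others.

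**Figure D1:**
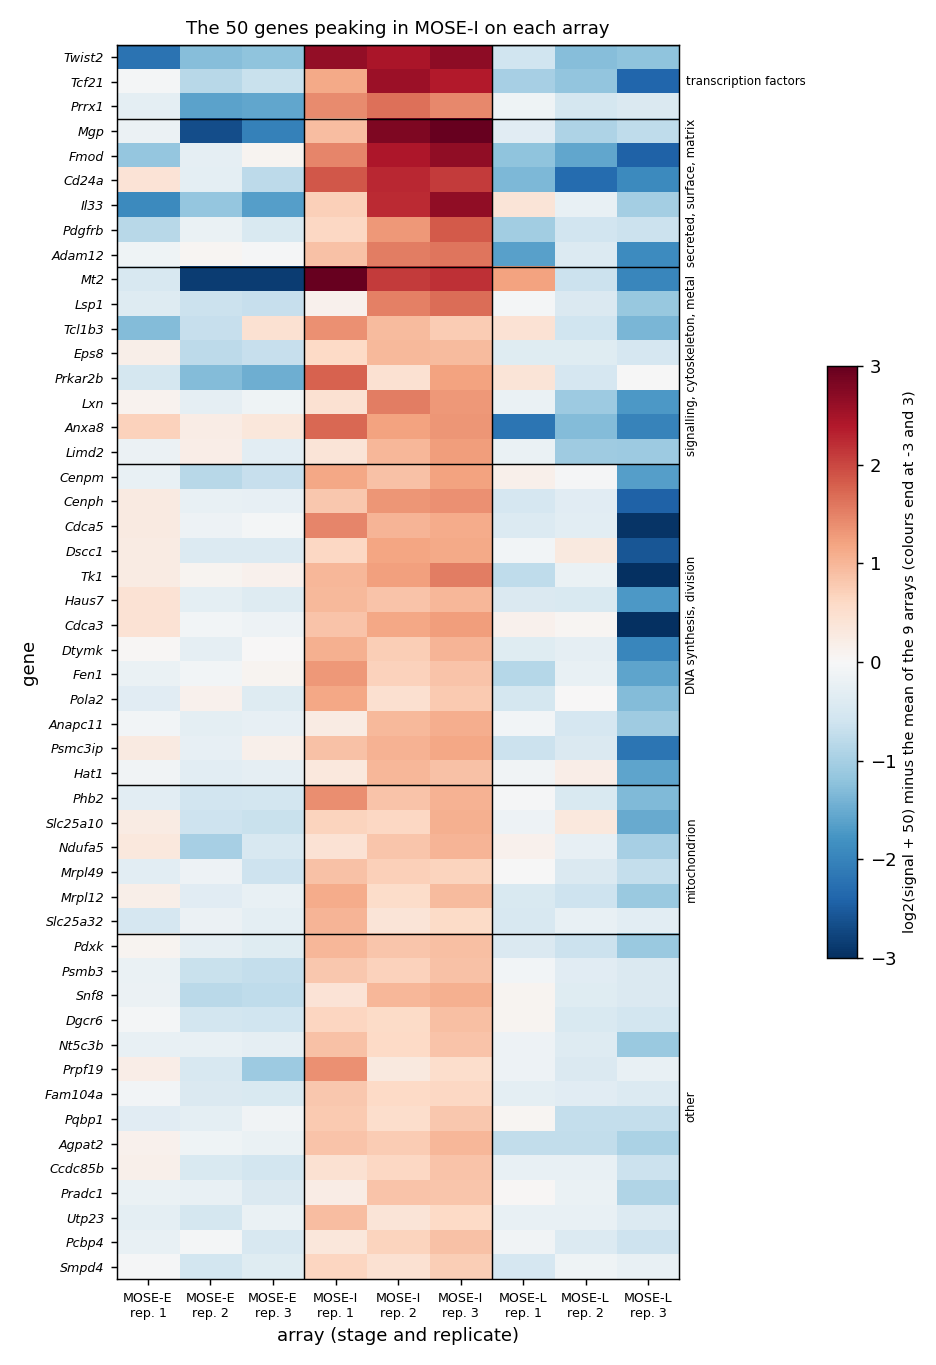
Level of the 50 genes (rows, grouped by role) on each of the 9 arrays (columns), as log2 of the signal plus 50 minus the gene's mean over the arrays. By the rule, every gene is highest on the 3 MOSE-I arrays, and the genes of DNA synthesis and division are lowest on MOSE-L replicate 3.

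Twist2 showed the steepest peak. This basic helix-loop-helix repressor gave signals of 18.8, 81.3 and 87.3 in MOSE-E, 1936, 1706 and 2010.2 in MOSE-I and 161, 82.7 and 87.6 in MOSE-L. Its MOSE-I mean was 30.2 times that of MOSE-E and 17.1 times that of MOSE-L cells, and the low signals of both those stages make the size of these ratios imprecise. The homeobox factor Prrx1 gave 377, 122 and 128 in MOSE-E, 1344, 1587 and 1370.4 in MOSE-I and 426, 309 and 337 in MOSE-L. Tcf21, a helix-loop-helix factor of visceral mesenchyme, gave 288, 149 and 171 in MOSE-E, 728, 2038 and 1786 in MOSE-I and 126, 104 and 17.9 in MOSE-L. For Twist2 and Prrx1 the MOSE-I arrays lay close together, whereas Tcf21 was lowest on MOSE-I replicate 1, at an earlier passage than the other replicates. All 3 factors passed the rule when any single array was left out.
The upstream promoters of Twist2 and Tcf21 are shown, as the genome context of both helix-loop-helix factors, from a RefSeq table of the build GRCm38.p6, as the 250 bases before the start, 5′ to 3′ along the gene. Capitals mark a CCAAT box 63 bases before the start in Twist2 and the GATA letters AGATAA 31 bases before it in Tcf21.
Twist2 (chr1:91801211-91801460, plus strand): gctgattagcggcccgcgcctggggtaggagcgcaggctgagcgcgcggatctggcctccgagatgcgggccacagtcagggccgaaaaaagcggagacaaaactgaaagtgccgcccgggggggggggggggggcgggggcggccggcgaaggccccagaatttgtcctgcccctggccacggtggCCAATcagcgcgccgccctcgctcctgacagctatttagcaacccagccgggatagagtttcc
Tcf21 (chr10:22820144-22820393, minus strand): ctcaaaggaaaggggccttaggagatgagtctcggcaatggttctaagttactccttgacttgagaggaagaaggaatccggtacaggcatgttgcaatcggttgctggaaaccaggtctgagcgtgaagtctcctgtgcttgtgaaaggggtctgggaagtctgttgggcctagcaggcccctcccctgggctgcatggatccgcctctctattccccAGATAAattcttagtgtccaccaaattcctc

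Related regulators had various courses. Lists of related genes were counted without the 50 genes, with limma calls that required a log2 change of size 1 or more and an adjusted p of at most 0.05. Of the 7 other tested epithelial-mesenchymal transition factors, 1 was called higher in MOSE-I than in MOSE-E, against 2.29% of all tested genes, and 2 without MOSE-I replicate 1. That gene, Snai2, a zinc finger repressor of E-cadherin, gave 1907, 1588 and 757 in MOSE-E, 5323, 6138 and 5805 in MOSE-I and 6422, 5465 and 10207 in MOSE-L, and was not called between MOSE-L and MOSE-I (log2 change 0.30, adjusted p = 0.499, limma). Twist1, the paralog of Twist2, gave 548, 682 and 588 in MOSE-E, 445, 489.9 and 577 in MOSE-I and 69.4, 37.9 and 15.0 in MOSE-L, without a peak. Prrx2, the paralog of Prrx1, gave 88.6, 10.7 and 124 in MOSE-E, 165, 605 and 619 in MOSE-I and 75.4, 58.7 and 23.4 in MOSE-L, and its MOSE-I mean stayed under the limit of 500 that the rule set. Zeb1, Tcf3 and Tcf4 of the same list were not called in the contrast with MOSE-E.

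**Figure D2:**
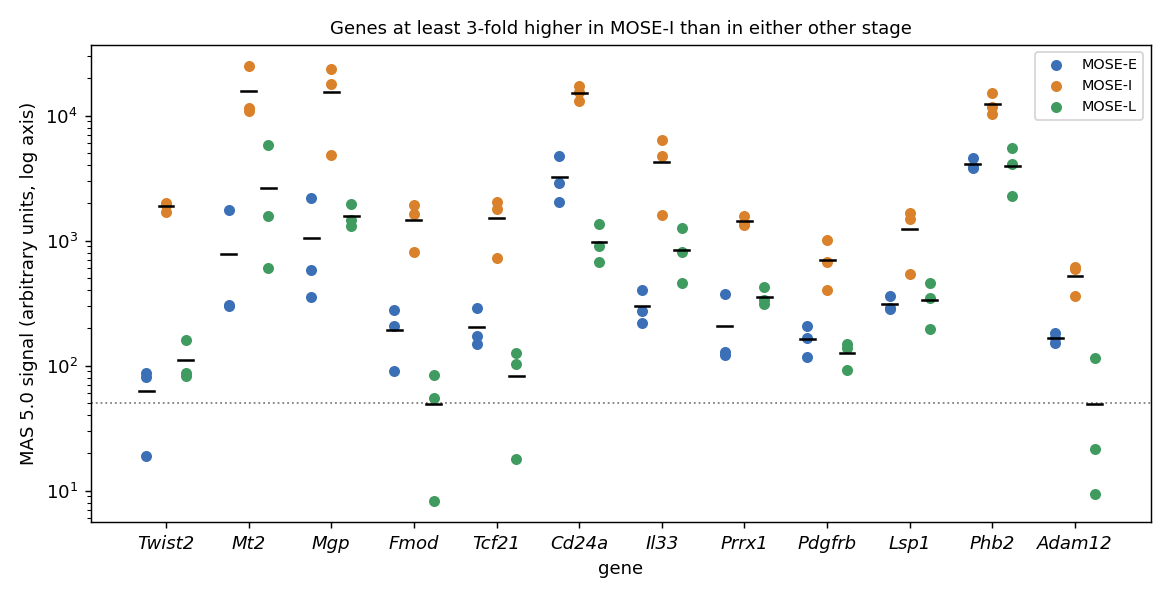
Signals (log axis, arbitrary units) of the 12 genes at least 3 times higher in MOSE-I than in either other stage; each point is an array, black bars are the means of 3 arrays, and the dotted line marks the added value of 50. MOSE-I points lie above all other points of the same gene, from 17.1-fold for Twist2 to 3.05-fold for Phb2 by the lower ratio of means.

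Of the 10 other tested helix-loop-helix and Id factors, 0 were called higher in MOSE-I than in MOSE-E by limma, with 3 at an unadjusted p under 0.05, beside 17.0% of all tested genes. In MOSE-L, 3 were called lower than in MOSE-I, against 6.04% of all tested genes, and 1 without MOSE-L replicate 3. Id1, an inhibitor of these factors, gave 5169, 2815 and 3483 in MOSE-E, 6213, 8046 and 7272 in MOSE-I and 4543, 1806 and 1561 in MOSE-L and had a ratio to MOSE-E under the limit. Its relatives Id2 and Id3, and Myc, Tcf12 and Bhlhe40, did not have all MOSE-I arrays above the other stages.

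The 6 genes for secreted, surface and matrix proteins had a median lower ratio of 4.86, beside 7.48 for the 3 transcription factors and 2.46 or less for the other groups. Matrix Gla protein (Mgp), an inhibitor of calcification, gave 2211, 355 and 579 in MOSE-E, 4844, 17842 and 23408 in MOSE-I and 1968, 1314 and 1473 in MOSE-L. Fibromodulin (Fmod), a small proteoglycan that binds collagen fibrils, gave 90.9, 209 and 281 in MOSE-E, 808, 1637 and 1919 in MOSE-I and 84.9, 55.4 and 8.34 in MOSE-L. The anchored surface protein Cd24a, used as a marker of progenitor cells, gave 4775, 2871 and 2052 in MOSE-E, 13146, 17127 and 15464 in MOSE-I and 1364, 672 and 909 in MOSE-L. Mgp and Fmod were lowest in MOSE-I replicate 1, and Cd24a was high on all MOSE-I arrays.

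Interleukin 33 (Il33), a nuclear cytokine of the interleukin 1 family that is released from damaged cells, gave 219.8, 402 and 273 in MOSE-E, 1617, 4721 and 6343 in MOSE-I and 1268, 814 and 454 in MOSE-L. The platelet-derived growth factor receptor Pdgfrb, a receptor tyrosine kinase of pericytes and fibroblasts, gave 117, 209 and 166 in MOSE-E, 404, 674 and 1011 in MOSE-I and 92.5, 148 and 138 in MOSE-L. Adam12, a membrane-anchored metalloproteinase, gave 152, 182 and 167 in MOSE-E, 359.6, 592 and 620.3 in MOSE-I and 21.5, 116 and 9.40 in MOSE-L. In all 6 genes, MOSE-I replicate 1 had the lowest of the MOSE-I signals, and its median ratio to the mean of replicates 2 and 3 was 0.467.

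Markers of fibroblasts moved in part with this difference between MOSE-I arrays. Of the 5 fibroblast markers, all were measured and 4 exceeded 500, and their summed signal lay between 35196 and 79604 in MOSE-E, between 20374 and 61486 in MOSE-I and between 22623 and 32736 in MOSE-L cells. Pdgfra gave 175, 1039.6 and 1556 on the MOSE-I arrays and Dcn 3588, 18678 and 14449, both lowest on replicate 1. Col1a1 and Col1a2 were also lowest there, while Thy1, a defining marker, stayed between 13.9 and 159 on all 9 arrays. Of the 5 markers, 1 (Pdgfra) had its highest mean in MOSE-I. The means of Col1a1, Col1a2 and Thy1 were highest in MOSE-E and that of Dcn in MOSE-L. The macrophage receptor Csf1r gave 228, 492 and 595 on the MOSE-I arrays, but the leukocyte marker Ptprc did not exceed 51.9 on any array. The part of these markers in the peaks was not tested. In such bulk RNA, more cells that express a gene and more RNA per cell cannot be told apart.

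Related genes of the matrix mostly had another course. Of 35 other tested matrix genes, 0 were called higher in MOSE-I than in MOSE-E by limma, with 0 at an unadjusted p under 0.05, whereas 17 were called lower, against 3.61% of all tested genes. The count called lower was 21 without MOSE-E replicate 1, beside 4.78% of all tested genes. It was 13 without MOSE-I replicate 1, beside 3.3%, and 19 without MOSE-L replicate 3, beside 4.29%. The median log2 change of the 35 genes was -1.39, beside 0.03 over all tested genes. Collagen genes such as Col3a1, Col5a2 and Col1a1 were among those called lower, with log2 changes of -1.51, -1.57 and -1.66. Of 10 other tested proteoglycans, limma called 0 higher (2 at an unadjusted p under 0.05) and 2 lower. Of 16 other metalloproteinases and inhibitors, it called 0 higher (1 at an unadjusted p under 0.05) and 4 lower, among them Mmp14 and Adam9, with log2 changes of -2.06 and -1.27.

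Of 11 tested cytokines and chemokines other than Il33, 1 was called higher in MOSE-I than in MOSE-E. This gene, the neutrophil chemokine Cxcl1, gave 935, 747 and 795 in MOSE-E, 4193, 1549.5 and 2497 in MOSE-I and 2903, 2516 and 1479 in MOSE-L and was not called between MOSE-L and MOSE-I. Of 9 tested surface markers of stem and progenitor cells other than Cd24a, 0 were called higher in MOSE-I than in MOSE-E by limma, with 1 at an unadjusted p under 0.05. Cd44, often measured together with Cd24a, gave 6908, 10441 and 9326 in MOSE-E, 4937, 3513 and 5153 in MOSE-I and 2047, 3947 and 4580.1 in MOSE-L, without a peak in MOSE-I. Without MOSE-I replicate 1, 3 of these stem cell genes, 2 cytokines, 1 proteoglycan and 1 metalloproteinase were called higher in MOSE-I than in MOSE-E, against 3.69% of all tested genes.

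Of 14 tested receptor tyrosine kinases other than Pdgfrb, 0 were called higher in MOSE-I than in MOSE-E by limma, with 1 at an unadjusted p under 0.05. From MOSE-I to MOSE-L, 5 were called higher, against 7.38% of all tested genes, and 3 lower, against 6.04%. The related receptor Pdgfra gave 185, 178 and 128 in MOSE-E, 175, 1039.6 and 1556 in MOSE-I and 536, 261 and 1221 in MOSE-L, with MOSE-I replicate 1 at the level of MOSE-E cells. The means of the ligands Pdgfa and Pdgfb were 296 and 246 in MOSE-I, beside 678 and 781 in MOSE-E. Without that array Pdgfra was called higher in MOSE-I than in MOSE-E.

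Among the 8 genes of signalling, cytoskeleton and metal binding, metallothionein 2 (Mt2) gave 1753, 304 and 300.2 in MOSE-E, 24804, 10835 and 11425 in MOSE-I and 5773, 1576 and 600.3 in MOSE-L. It was highest on MOSE-I replicate 1, the reverse of the matrix genes, and MOSE-E replicate 1 and MOSE-L replicate 1 were also the highest of their stages. The neighbouring family member Mt1 gave 2494, 270.4 and 296 in MOSE-E, 27886, 12172 and 14507 in MOSE-I and 12812, 4839 and 1600.5 in MOSE-L. Mt1 thus also had its highest mean in MOSE-I but did not pass the rule, because MOSE-L replicate 1 exceeded MOSE-I replicate 2. By limma, Mt1 was called higher in MOSE-L than in MOSE-E, unlike Mt2, and was not called between MOSE-L and MOSE-I. Metallothioneins share much sequence, and signal shared between both probe sets was not tested.
The upstream promoter of Mt2 is shown because metals act on metallothioneins through short response elements. Capitals mark matches to the core of the metal response element, TGCACNC or TGCGCNC on either strand, which begin 223, 128 and 50 bases before the start.
Mt2 (chr8:94172368-94172617, plus strand): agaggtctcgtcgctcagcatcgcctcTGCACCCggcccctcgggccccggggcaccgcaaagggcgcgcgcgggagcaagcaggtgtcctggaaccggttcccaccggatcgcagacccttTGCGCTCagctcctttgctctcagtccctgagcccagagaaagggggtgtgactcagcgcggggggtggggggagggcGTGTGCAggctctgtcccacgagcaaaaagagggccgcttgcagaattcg

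The actin-binding protein Lsp1 gave 363, 291 and 285 in MOSE-E, 539, 1486 and 1673 in MOSE-I and 463, 347 and 196 in MOSE-L. Eps8, a receptor kinase substrate that caps actin filaments, gave 3279, 1660.4 and 1775 in MOSE-E, 4417, 5728 and 5644 in MOSE-I and 2221, 2223 and 2016 in MOSE-L. Both were lowest on MOSE-I replicate 1 among the MOSE-I arrays, Eps8 by less. Prkar2b, a regulatory subunit of protein kinase A, gave 310.2, 162 and 137 in MOSE-E, 1737, 669 and 1142 in MOSE-I and 635, 315 and 464 in MOSE-L. Latexin (Lxn), an inhibitor of carboxypeptidases, gave 2841, 2167 and 2405 in MOSE-E, 3639, 7695 and 6504 in MOSE-I and 2268, 1200.4 and 762 in MOSE-L. MOSE-I replicate 1 was the highest MOSE-I array for Prkar2b and the lowest for Lxn. Tcl1b3, of the Tcl1 family, gave 2266, 3499 and 7809.9 in MOSE-E, 14804, 10913 and 9595 in MOSE-I and 7661, 3715 and 2143 in MOSE-L, and which of its near-identical family members the probe set measured was not tested. Limd2, a LIM domain protein, gave 518, 687 and 466 in MOSE-E, 790.3, 1233 and 1469.7 in MOSE-I and 513, 257 and 252 in MOSE-L.

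Annexin A8 (Anxa8), a calcium-dependent membrane-binding protein, gave 5038, 3595 and 3936 in MOSE-E, 10241, 7223 and 7780.2 in MOSE-I and 641, 1235 and 729 in MOSE-L. Here MOSE-I stood 2.01-fold above MOSE-E, just over the limit, and 9.69-fold above MOSE-L cells. A brighter probe set of Anxa8 had means of 6189, 10846 and 1218 in the 3 stages. Its ratio to MOSE-E was 1.75, so it did not pass the rule. Of 13 other tested S100 proteins and annexins, 2 were called lower in MOSE-L than in MOSE-I, against 6.04% of all tested genes. The count was 1 without MOSE-E replicate 1, beside 5.80%, and 0 without MOSE-L replicate 3, beside 3.76%. The abundant Anxa1 and Anxa2 were not called against MOSE-E.

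The 13 genes of DNA synthesis and cell division had low peaks over MOSE-E and larger differences from MOSE-L. Their median ratio was 2.08 to MOSE-E and 3.17 to MOSE-L. The centromere protein Cenpm, part of the complex that holds kinetochores on chromatin, gave 456, 281 and 318 in MOSE-E, 1282, 1036 and 1319.9 in MOSE-I and 611, 530.2 and 139.7 in MOSE-L. Cenph, a subunit of the same complex, gave 861, 597 and 589 in MOSE-E, 1271, 1862 and 1902 in MOSE-I and 487, 548 and 90.5 in MOSE-L. MOSE-L replicate 3 had the lowest signal for both, and replicates 1 and 2 of MOSE-L were below the MOSE-E arrays for Cenph and above them for Cenpm.

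Sororin (Cdca5), which holds sister chromatids together, gave 2262, 1657 and 1790.1 in MOSE-E, 5217, 3797 and 4077 in MOSE-I and 1389, 1488 and 197 in MOSE-L. Dscc1, a subunit of a clamp loader needed for cohesion, gave 699.8, 422 and 426 in MOSE-E, 912, 1379.9 and 1341 in MOSE-I and 544, 719 and 56.8 in MOSE-L. Thymidine kinase 1 (Tk1), an enzyme of the S phase salvage pathway, gave 2750.2, 2438 and 2537 in MOSE-E, 4666, 5520.5 and 6799 in MOSE-I and 1347, 2007 and 197 in MOSE-L. In each of them MOSE-L replicate 3 fell far below the other MOSE-L arrays. Its level relative to the mean of replicates 1 and 2 had a median of 0.245 over the 13 genes, and it was under 0.5 in 12 of them.

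The other genes of this group had lower ratios between 2.00 and 2.11. They were Dtymk, which makes thymidine diphosphate, the flap endonuclease Fen1, the polymerase alpha subunit Pola2, the histone acetyltransferase Hat1, the mitotic regulator Cdca3, the augmin subunit Haus7, the ubiquitin ligase subunit Anapc11, and Psmc3ip, a partner of meiotic recombinases. Cdca3 gave 4797, 3337 and 3187 in MOSE-E, 6478, 7987 and 8474 in MOSE-I and 3857, 3695 and 239 in MOSE-L. Fen1 gave 2469, 2676 and 3026 in MOSE-E, 7075, 4654 and 5146 in MOSE-I and 1560.3, 2416 and 917 in MOSE-L. For Cdca3, MOSE-L replicates 1 and 2 lay within the range of the MOSE-E arrays.
The upstream promoter of Cdca3 stands for the genes of cell division, with capitals marking CCAAT boxes, on either strand, 104 and 71 bases before the start.
Cdca3 (chr6:124829926-124830175, plus strand): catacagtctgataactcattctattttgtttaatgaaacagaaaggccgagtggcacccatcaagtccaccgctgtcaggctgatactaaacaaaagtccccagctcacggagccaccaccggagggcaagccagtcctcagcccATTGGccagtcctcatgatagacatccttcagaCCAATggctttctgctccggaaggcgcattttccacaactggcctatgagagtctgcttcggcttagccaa

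MOSE-L replicate 3 was the lowest MOSE-L array in 40 of the 50 genes, whereas this was so in 38.4% of all tested probe sets. Its signal was under 0.5 times the mean of the other MOSE-L arrays in 22 of the 50 genes, beside 6.61% of tested probe sets. The ratio of 3' to 5' signal of the Actb control was 1.83 on this array and 1.12 to 1.45 on the others. That of the Gapdh control was 0.727 on this array, the lowest value, and 0.735 to 0.810 on the others. The part of RNA quality in the result was not tested. Without this array 47 genes met the rule, 40 of them among the 50, and Dscc1 and Hat1 were the genes of DNA synthesis and division that failed it. On the MOSE-E side, replicate 1 was the highest array in 36 of the 50 genes, beside 43.7% of tested probe sets. When it was left out, 67 genes met the rule, 46 of them among the 50.

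**Figure D3:**
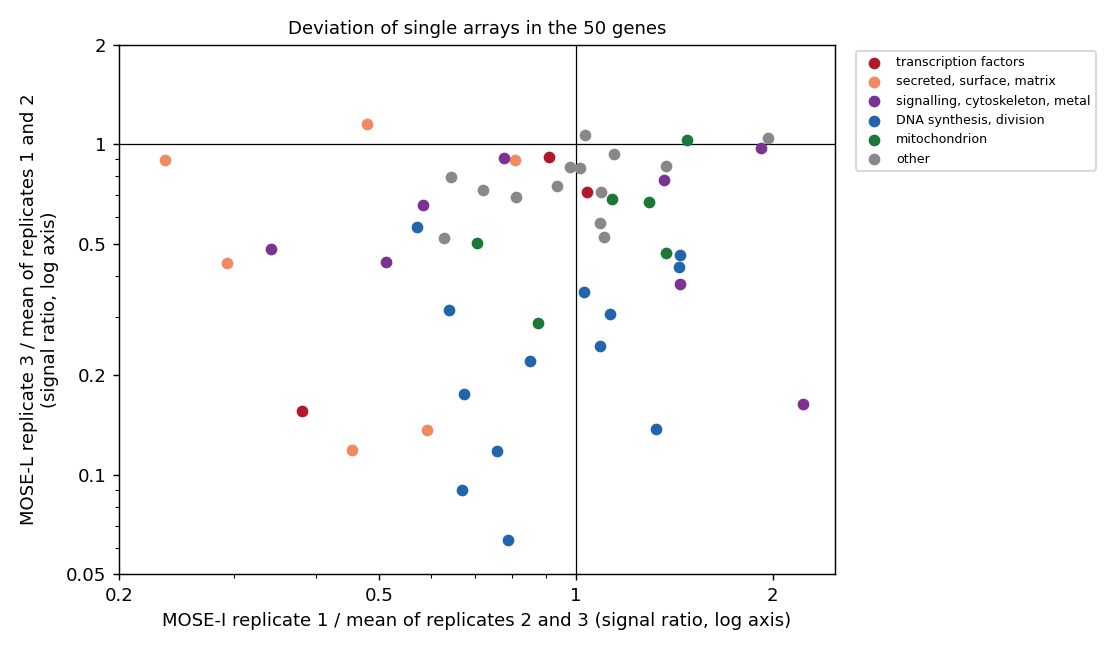
For each of the 50 genes, MOSE-I replicate 1 relative to the mean of MOSE-I replicates 2 and 3 (horizontal, log axis) and MOSE-L replicate 3 relative to the mean of MOSE-L replicates 1 and 2 (vertical, log axis), coloured by role. Genes of DNA synthesis and division lie low, with a median of 0.245 on the vertical axis, and the 6 secreted, surface and matrix genes lie left of 1.

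MOSE-I replicate 1, at passage 63, was the lowest MOSE-I array in 24 of the 50 genes and the highest in 17, beside 43.1% and 40.3% of tested probe sets. Replicate 2 was lowest in 24, and replicate 3 was highest in 25, beside 27.8% of tested probe sets. Without MOSE-I replicate 1, 96 genes met the rule, 38 of them among the 50, with the demand on the MOSE-I arrays then resting on 2 of them. In total, 21 of the 50 genes met the rule in each of the 9 sets that leave out 1 array. These were all 3 transcription factors, 5 of the 6 secreted, surface and matrix genes, 5 of the 8 signalling and metal-binding genes, 3 of the 13 of DNA synthesis and division, 2 of the 6 mitochondrial ones and 3 of the 14 others.

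The 6 mitochondrial genes had lower ratios from 2.01 to 3.05. Prohibitin 2 (Phb2), a scaffold protein of the inner membrane, gave 4551, 3809 and 3851 in MOSE-E, 15172, 10309 and 11752 in MOSE-I and 5533, 4112 and 2262 in MOSE-L. The mitochondrial ribosomal protein Mrpl49 gave 766, 865 and 613 in MOSE-E, 1799, 1601 and 1563 in MOSE-I and 954, 695 and 564 in MOSE-L. Ndufa5, a subunit of respiratory complex I, gave 2214, 868 and 1263 in MOSE-E, 2403, 3175 and 3634 in MOSE-I and 1958, 1485 and 862 in MOSE-L. The dicarboxylate carrier Slc25a10 gave 1052, 555 and 539 in MOSE-E, 1435, 1371 and 1903 in MOSE-I and 791, 1113 and 275 in MOSE-L. For Ndufa5 the lowest MOSE-I signal lay close above MOSE-E replicate 1. Mrpl12, of the same ribosome, and Slc25a32, a folate carrier, had ratios of 2.01 and 2.07 to MOSE-E and 3.07 and 2.11 to MOSE-L.

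Among the remaining 14 genes, the brightest was Psmb3, a core subunit of the proteasome, with 8992, 6430.2 and 6276 in MOSE-E, 18136, 16708 and 19053 in MOSE-I and 9704, 8145 and 7565 in MOSE-L. Its signals were tight within each stage, and MOSE-E and MOSE-L overlapped. Snf8, of the ESCRT-II complex that sorts membrane proteins, had ratios of 2.69 to MOSE-E and 2.13 to MOSE-L. Pyridoxal kinase (Pdxk) had 2.35 and 3.70, and the splicing-associated ubiquitin ligase Prpf19 had 2.33 and 2.17. The other 10 were Agpat2, which makes phosphatidic acid, the nucleotidase Nt5c3b, the RNA-binding proteins Pqbp1 and Pcbp4, Utp23 of ribosomal RNA processing, the sphingomyelinase Smpd4, and Pradc1, Dgcr6, Fam104a and Ccdc85b. The lower ratio of these 14 genes ran from 2.01 to 2.35.

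Genes lay close to the 2-fold limit on either side. Just inside it lay Hat1, at 2.003 times the MOSE-E mean, and Anxa8 at 2.008 times. Just outside lay the glutaredoxin Glrx, with a MOSE-I mean of 963 and 1.99 times the MOSE-L mean, and the kinase Tec, with a MOSE-I mean of 927 and 1.99 times the MOSE-E mean. A limit of 1.5 gave 343 genes and a limit of 3 gave 12.

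MOSE-L was then compared with MOSE-E for lasting differences. In limma, with Benjamini-Hochberg adjustment over 13845 probe sets, calls required a log2 change of size 1 or more whose adjusted p did not exceed 0.05. None of the 50 genes was called higher in MOSE-L than in MOSE-E, against 7.63% of all tested probe sets, and 3 were called lower, against 7.37%. At an unadjusted p under 0.05, 3 were higher, beside 19.9% of tested probe sets, and 15 lower, beside 20.1%. The methods' t-test without adjustment called 0 higher, beside 6.14%, and 2 lower, beside 6.98%. The median log2 change of the 50 was -0.17, beside 0.01 over all tested probe sets. Since both stages had to lie under MOSE-I, large changes in either direction were limited by the choice of the genes. Twist2, Fmod, Tcf21, Prrx1, Pdgfrb, Lsp1, Adam12, Pdxk, Ccdc85b, Utp23, Pcbp4 and Smpd4 had no MOSE-E or MOSE-L signal over 500. They entered the test only through their MOSE-I signals, so the shares over all tested probe sets are no like comparison for them.

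Anxa8 fell by 2.25 on the log2 scale (SE 0.26, adjusted p = 0.000245), to 868 ± 321 in MOSE-L from 4189.8 ± 754 in MOSE-E cells (SD, n = 3), and the stages did not overlap. Cd24a fell by 1.64 (SE 0.32, adjusted p = 0.00483), to 982 ± 352 from 3233 ± 1397, also without overlap. Both remained called whenever 1 array was left out. Psmc3ip gave 636, 428 and 584 in MOSE-E, 1003, 1133 and 1222 in MOSE-I and 313, 375 and 75.9 in MOSE-L and fell by 1.14 (SE 0.38, adjusted p = 0.0496), to 255 ± 158 from 549 ± 109. This call was lost without MOSE-L replicate 3, where the log2 change was -0.59 (adjusted p = 0.0701), and without any single one of the MOSE-E or MOSE-I arrays (adjusted p from 0.062 to 0.134). A brighter further probe set of Psmc3ip had means of 901, 1747 and 528 in the 3 stages, a smaller fall in proportion. Its ratio of MOSE-I to MOSE-E was 1.94, so it did not pass the rule.

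The intervals of the other changes differed in width. For 20 of the 50 genes the 95% interval of the log2 change lay within -1 and 1, so that a change of 2-fold on this scale was outside it. The share over all tested probe sets was not counted, so this is not read as a trait of these genes. Lsp1, Ccdc85b, Utp23, Pcbp4 and Smpd4 were among the 20 but were tested only through their MOSE-I signals. The added 50 also understates changes of such dim genes. Fam104a, at -0.02 (-0.40 to 0.35), Mrpl49, at -0.04 (-0.50 to 0.43), and Psmb3, at 0.24 (-0.18 to 0.66), were also among the 20. For Eps8 the log2 change was 0.01 (-0.54 to 0.57).

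Larger changes that were not called were seen in several genes. Il33 had a log2 change of 1.29 (interval 0.24 to 2.33, adjusted p = 0.0666), Mt2 of 1.59 (-0.13 to 3.32, adjusted p = 0.153) and Prkar2b of 1.06 (0.24 to 1.87, adjusted p = 0.0558). In the other direction, Fmod had -1.29 (-2.27 to -0.31, adjusted p = 0.0532), Adam12 -1.28 (-2.24 to -0.32, adjusted p = 0.0503) and Tk1 -1.55 (-2.87 to -0.24, adjusted p = 0.0763). Further calls were made when 1 array was left out. Without MOSE-E replicate 1, Mt2, Prkar2b and Prrx1 were called higher and Fmod lower in MOSE-L. Without MOSE-I replicate 1, Il33 and Prkar2b were called higher and Fmod lower, and Prkar2b was also called without MOSE-I replicate 2. Without MOSE-L replicate 1, Fmod and Lxn were called lower. Without MOSE-L replicate 2, Prkar2b was called higher and Adam12, Tk1 and Fen1 lower, and without MOSE-L replicate 3, Il33 and Mt2 were called higher. Adam12 and Fmod were also called lower after quantile normalization, median centring or a fit without the variance trend. For Twist2 the change was 0.54 (-0.17 to 1.26, adjusted p = 0.235).

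For the genes of DNA synthesis and division, 12 of 13 had a negative log2 change from MOSE-E to MOSE-L, beside 49.6% of all tested probe sets. The median over the 13 genes was -0.79. With the mean of MOSE-L replicates 1 and 2 alone, the median was -0.25. By contrast, the median change was -0.05 for the 14 other genes and -0.07 for the 6 mitochondrial genes. The fall was not particular to the 13 genes. On a mitosis list that holds none of the 50, limma called 17 of 24 tested genes lower in MOSE-L than in MOSE-E. Their median log2 change was -1.64, and 7.37% of all tested probe sets were called lower.

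**Figure D4:**
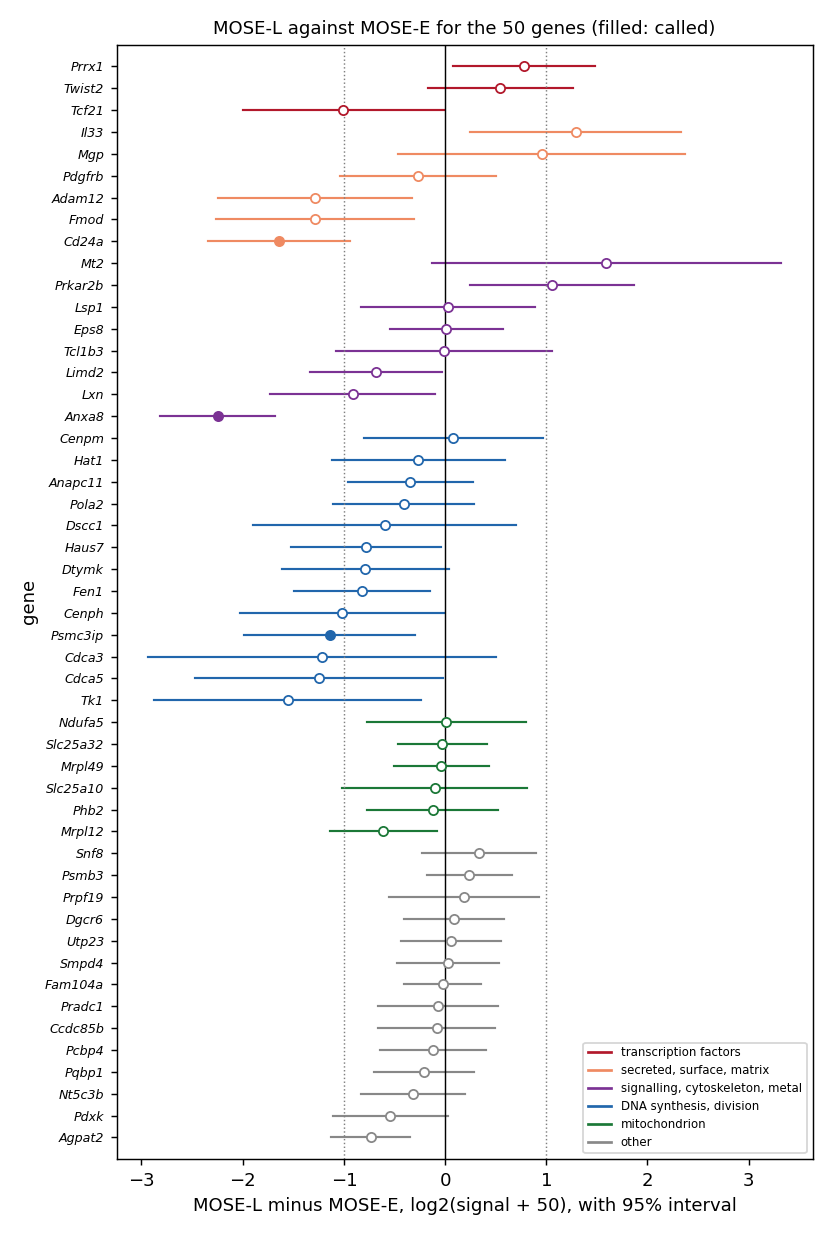
Log2 change from MOSE-E to MOSE-L of the 50 genes with its 95% interval from limma (n = 3 arrays per stage), coloured by role; filled points were called and dotted lines mark changes of 1. Anxa8, Cd24a and Psmc3ip, at -2.25, -1.64 and -1.14, are the called genes.

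The contrasts used by the rule gave 22 of the 50 genes called higher in MOSE-I than in MOSE-E, against 1.97% of tested probe sets, and 46 called lower in MOSE-L than in MOSE-I, against 5.85%. Nothing is read from these counts, which the choice of the genes sets. Without MOSE-E replicate 1 the counts were 29 and 44, without MOSE-I replicate 1 they were 22 and 36, and without MOSE-L replicate 3 they were 36 and 32.

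Other probe sets of the same genes are measured by other probes on the same arrays. Of the 50 genes, 33 had at least 1 further probe set naming them alone, and 52 of these 66 further probe sets had their highest mean in MOSE-I. With a signal over 500 demanded on a MOSE-E or MOSE-L array, which a high MOSE-I signal alone does not meet, 28 of 30 did. With a signal over 500 on any array, 27 genes had 40 further probe sets, and 9 of these, in 7 genes, also passed the rule. Cd24a was measured by 3 passing probe sets. The further ones had means of 7361 and 6351 in MOSE-I, beside 1749.5 and 1923 in MOSE-E and 456 and 457 in MOSE-L cells. Eps8 likewise had 3 passing probe sets, and Fmod, Prrx1, Cdca5, Psmb3 and Dgcr6 had 2 each.

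Most further probe sets over 500 thus did not pass the rule, and in a few genes the course of the probe sets differed. Fam104a measured 987, 1013 and 974 in the 3 stages by a further probe set, a flat course. A further probe set of Utp23 measured 521, 587 and 646, while its 2 others were highest in MOSE-I, at 1776 and 715. A dim further one of Phb2 measured 298, 164 and 382. The other further probe sets of Phb2 were highest in MOSE-I, at 8436 and 10178. Their ratios to MOSE-E were 1.59 and 1.825, so neither passed the rule. The brighter probe set of Adam12 measured 636, 1224 and 113, a ratio of 1.93 to MOSE-E that is just outside the rule, and by it Adam12 was called lower in MOSE-L than in MOSE-E (log2 change -2.20, adjusted p = 0.0052, limma). The peak of Fam104a thus rests on 1 probe set. Of the 50 genes, 9 were represented by probe sets whose type can also detect other transcripts, and without that type 43 genes met the rule.

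Other genes related to the cell division, mitochondrial and proteasome members were counted on lists written after these members had been seen, so the counts, which leave out the 50 genes, describe their surroundings only. Of 74 tested genes of mitochondrial ribosomal proteins, 68 (91.9%) had their highest mean signal in MOSE-I, as had 38 of 43 proteasome genes (88.4%) and 29 of 35 genes of DNA replication and nucleotide synthesis (82.9%), beside 33.9% of all 7952 tested genes. For 16 centromere proteins the count was 11 and for 13 cohesion genes it was 6. All 3 MOSE-I arrays lay above the 6 others in 33 mitochondrial ribosomal, 20 proteasome and 22 DNA replication genes, beside 10.1% of all tested genes. Without MOSE-L replicate 3 the shares with the highest mean in MOSE-I were 93.2%, 86.0% and 82.9%, and without MOSE-I replicate 1 they were 81.1%, 88.4% and 80.0%.

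Against MOSE-E, 2 mitochondrial ribosomal, 1 proteasome and 0 DNA replication genes were called higher in MOSE-I by limma, against 2.29% of all tested genes, and 31, 17 and 9 at an unadjusted p under 0.05, beside 17.0%. Their median log2 changes from MOSE-E to MOSE-I were 0.42, 0.43 and 0.33, beside 0.03 over all tested genes. Without MOSE-E replicate 1 the calls were 7, 4 and 1, beside 4.12% of all genes, without MOSE-I replicate 1 they were 2, 5 and 0, beside 3.69%, and without MOSE-L replicate 3 they were 2, 1 and 0, beside 2.82%. From MOSE-I to MOSE-L, 22 DNA replication genes, 6 centromere proteins and 9 mitochondrial ribosomal genes were called lower, against 6.04% of all tested genes. Of the 43 proteasome genes, 2 were called lower. Without MOSE-L replicate 3 these counts, in the same order, were 7, 2, 4 and 2, beside 3.76% of all genes. Without MOSE-I replicate 1 they were 7, 5, 7 and 3, beside 4.74%. The mitosis list, not among those written afterwards, had a median log2 change from MOSE-E to MOSE-I of 0.01. Of its 24 tested genes, limma called 0 higher, with 0 at an unadjusted p under 0.05. By means of log2 signals, 13 were highest in MOSE-I, beside 33.6% of all tested genes. From MOSE-I to MOSE-L, 16 were called lower, 7 without MOSE-L replicate 3 and 3 without MOSE-I replicate 1.

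**Figure D5:**
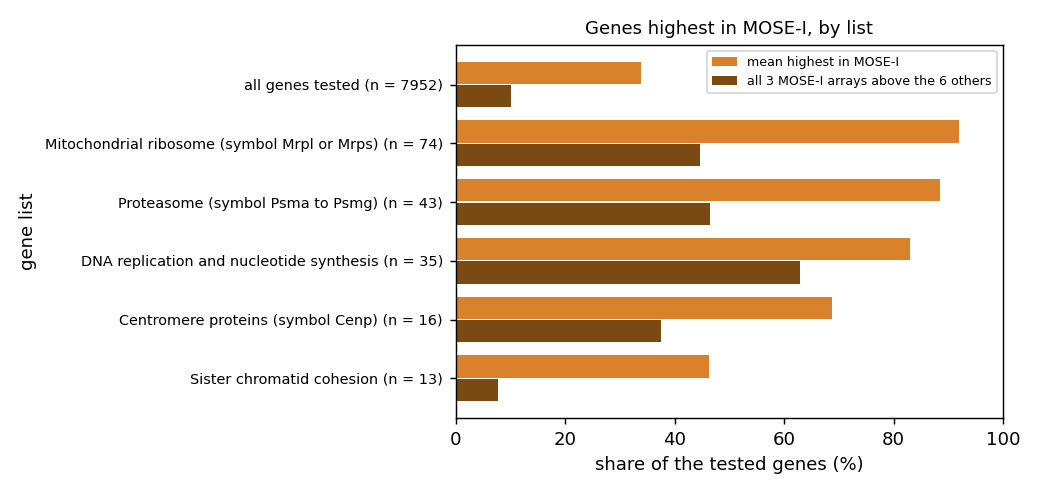
Share of the tested genes (horizontal, %) with the highest mean signal in MOSE-I (light bars) and with all 3 MOSE-I arrays above the 6 others (dark bars), for all genes and for lists related to the members, which are left out of them. The mitochondrial ribosome reaches 91.9% and all tested genes 33.9% by the first measure.

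By position, 10 of the 50 genes lay on chromosome 11, which held 8.17% of the tested genes, 7 on chromosome 19, which held 3.85%, and 6 on chromosome 6, which held 4.90%. The median log2 difference between MOSE-I and MOSE-E over all tested genes was 0.16 on chromosome 11, 0.31 on chromosome 19 and 0.26 on chromosome 6, beside 0.03 over the genome. Chromosome 15, with 4 of the genes, had a median of 0.41. The difference between MOSE-L and MOSE-E had medians of 0.06, 0.31, 0.14 and 0.37 on chromosomes 11, 19, 6 and 15, so that on chromosomes 19 and 15 the medians of MOSE-L lay near those of MOSE-I. Some of the genes were close neighbours. Among tested genes, Mrpl12 and Slc25a10 were adjacent on chromosome 11, with 3 genes between Slc25a10 and Anapc11. On chromosome 6, 1 gene lay between Mgp and Eps8 and 4 between Phb2 and Cdca3, and on chromosome 19, 1 lay between Pola2 and Mrpl49. No test was made of these positions.

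In the RefSeq promoter table, 39 of the 50 genes had an entry, with 52 starts, each with 250 bases before and 50 after the start. The letters of each motif were searched on both strands and a gene counted if any of its starts held them. The E-box CANNTG, which helix-loop-helix factors bind, was in 22 of 39 genes (56.4%), beside 75.0% of all genes in the table. Of its forms, all part of that count, CAGCTG was in 15.4% of the 39 genes (18.3% of all). The form CATCTG was in 7.69% (19.2%). The form CACCTG was in 17.9% (22.6%). The CCAAT box was in 19 genes (48.7%), beside 41.1% of all genes.

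The AP-1 site TGANTCA was in 5.13% of the 39 genes (8.97% of all), the cAMP element TGACGTCA in 2.56% (2.03%), the TEAD site GGAATG in 12.8% (16.6%), the GATA site AGATAA in 10.3% (12.7%), the TATA box TATAAA in 7.69% (15.7%) and the NF-kB site GGGANTTCC in 2.56% (1.92%). Of the motifs that were added later, the core of the metal response element, TGCACNC or TGCGCNC, was in 14 genes (35.9%, beside 28.2% of all), and the cell cycle element TTTGAA in 7 (17.9%, beside 20.2%). These matches are letters in a window and not sites known to be bound.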

How the data were processed

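RNA of 9 MOSE cell cultures, 3 per stage by GEO's labels, was measured on Affymetrix Mouse Genome arrays. The deposited values of 45101 probe sets are intensities on a linear scale, which the authors computed with MAS 5.0, with a trimmed mean of 500 set for all arrays. The genome build was not given in the sources used here. Detection calls were not used here. The number of arrays limits the precision of every value.

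Control probe sets (64) were left out, and 34945 of the others named 1 gene. For tests, log2 of the signal plus 50 was fitted for 13845 probe sets with a signal over 500 on any array, with 1 mean per stage, in limma 3.58.1 (R 4.3.3) with trended empirical Bayes variances and Benjamini-Hochberg adjustment over all of them. Calls required a log2 change of size 1 or more whose adjusted p did not exceed 0.05. The added 50 understates changes of dim genes. The fit was tested on simulated data. For lists, a gene took its tested probe set of highest mean signal, and the 50 genes were left out of the counts. Other steps used Python 3.11.15 and pandas 2.3.3.

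The members and lists were chosen with earlier results of these data known. Genes named were the 24 members with the largest gap on the log2 scale between MOSE-I and the higher other stage, members on a list with up to 6 further genes of that list by signal, members called between MOSE-L and MOSE-E, those next to the 2-fold limit, cell type markers and neighbouring members. Further genes, among them Mt1, Prrx2, Twist1, Pdgfra, Pdgfa, Pdgfb and Adam9, and lists for cell division, mitochondrial ribosome, proteasome, metallothioneins and PDGF were added after their values were seen. The alternatives tried were 1 or 200 as the added value, median centring or quantile normalization, other filters, no variance trend, only the compared arrays, the replicate number as a block, the methods' t-test, other thresholds, other limits of the rule, and leaving out each array.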

Additional observations from a re-analysis of the deposited data

How the results depend on the processing

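The number of genes peaking in MOSE-I was 50, and it was 343 with a minimum fold of 1.5, 12 with a minimum fold of 3, and 34 to 96 when 1 array was left out, the highest of these without MOSE-I replicate 1. It stayed within 1.5 times of 50, between 42 and 67, with a minimum mean of 250 or 1000, without the demand on overlap, after quantile normalization (57 genes, 44 of them among the 50) and without probe sets of the types that can detect other transcripts, an alternative chosen after seeing the data (43). The number called higher in MOSE-L than in MOSE-E was 0, with 1 (Prkar2b) at an added value of 1, 1 (Il33) in a fit of the MOSE-L and MOSE-E arrays alone, and 0 to 3 when 1 array was left out (3 with MOSE-E replicate 1 left out, 2 with MOSE-I replicate 1 or MOSE-L replicate 3 left out, and 1 with MOSE-I replicate 2 or MOSE-L replicate 2 left out). The number called lower was 3, with 5 after quantile normalization, 5 after median centring, 1 by the methods' t-test with adjustment, and 2 to 6 when 1 array was left out (5 without MOSE-L replicate 1, 6 without MOSE-L replicate 2). With a highest signal over 1000 demanded, 44 of the 50 genes were tested. The causes were not tested. Anxa8 was called under all 22 alternatives, Cd24a under 20, the exceptions being both forms of the methods' t-test, and Psmc3ip under 5. No called gene changed direction. The replicate number as a block gave 2 called higher (Mt2 and Prkar2b) and 3 lower, but same-numbered arrays correlated between -0.113 and 0.41 in their deviations, so that the numbers do not pair the samples. The 3 arrays per stage and signals near the added 50 limit the size of the ratios of Twist2, Fmod, Tcf21 and Adam12.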

Other observations

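Besides the 59 probe sets that name 1 gene, 4 probe sets met the rule without naming a single gene. The probe set shared by Gcat, an enzyme of threonine breakdown, and the galanin receptor Galr3 gave 436, 243 and 128 on the MOSE-E arrays, 1482, 935 and 1264 on the MOSE-I arrays and 495, 408 and 59.5 on the MOSE-L arrays. The probe set shared by the surface protein genes Ly6c1 and Ly6c2 gave 1066, 327 and 255 in MOSE-E, 1573, 1465 and 1504 in MOSE-I and 526, 621 and 599 in MOSE-L cells, with MOSE-E replicate 1 far above the other MOSE-E arrays. The probe set shared by Phb, the partner of Phb2, and 1700071K01Rik had a mean of 9427 in MOSE-I, 2.11 times that of MOSE-E and 2.83 times that of MOSE-L. A probe set without a gene name had a mean of 1693 in MOSE-I, 2.35 and 2.36 times those of the other stages. The mirror of the rule, with MOSE-I lowest, was met by 130 genes.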
